A study of Mus musculus with 12 samples.

Results

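The effect of BMP2 averaged over the RSPO2 state sets 6 libraries from cells given BMP2 against 6 libraries from cells without it, all 12 libraries of the study together. The cells were MC3T3-E1 subclone 14, a clonal mouse pre-osteoblast line of wild-type genotype derived from calvaria, so each arm is the response of 1 clone of 1 line. Every arm was kept for 5 days in osteogenic medium with ascorbic acid phosphate and β-glycerophosphate. The arms with BMP2 received recombinant BMP2 at 100.0 ng/ml (BMP2) or the same BMP2 together with recombinant mouse RSPO2 at 200.0 ng/ml (BMP2+RSPO2), and the arms without BMP2 received vehicle (Control) or RSPO2 at 200.0 ng/ml (RSPO2). Each arm holds 3 libraries, described by the submitters as independent biological replicates. The averaged effect is therefore made of 2 comparisons that share no library: BMP2+RSPO2 against RSPO2, called here the background with RSPO2, and BMP2 against Control, the background without RSPO2.

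BMP2 (bone morphogenetic protein 2) is a secreted ligand of the TGF-β superfamily. It binds type I and type II serine/threonine kinase receptors, which phosphorylate SMAD1, SMAD5 and SMAD9. These join SMAD4, enter the nucleus and switch on genes such as the Id genes, the Dlx homeobox genes and the inhibitory SMAD genes that dampen the signal. In mesenchymal cells BMP2 is known for inducing bone and cartilage formation, and secreted antagonists such as noggin and gremlin bind BMP ligands and keep them from their receptors. RSPO2 (R-spondin 2) strengthens Wnt signalling by protecting Wnt receptors from removal.

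Poly(A) RNA was sequenced and the authors deposited 1 FPKM value per gene and library, that is, fragments per kilobase of transcript scaled to the mapped fragments of the library. Tests used log2(FPKM + 1) in limma with RSPO2 state and replicate number as covariates. Genes with an adjusted p under 0.05 are referred to as called. The log2 changes below are on that scale, which understates the change of genes at low FPKM, and positive values are higher with BMP2. Sequencing depth is unknown, since FPKM values do not carry it. Between 10681 and 11379 genes reached 1 FPKM per library. All 6 pre-osteoblast markers checked (Runx2, Sp7, Alpl, Col1a1, Col1a2 and Ibsp) were at 1 FPKM or more in every library. Their summed level was 12626 to 22985 FPKM with BMP2 and 6541 to 10548 FPKM without. Of 6 endothelial, 5 haematopoietic and 4 epithelial markers in the table, none reached 1 FPKM in every library, and Ptprc, Adgre1 and Epcam were listed at 0 throughout. The summed endothelial level was 0.02 to 5.98 FPKM with BMP2 and 0 to 0.18 FPKM without, and the haematopoietic one 1.36 to 4.35 FPKM with BMP2 and 0.79 to 1.52 FPKM without. One library stood apart: in BMP2+RSPO2 replicate 1, FPKM summed to 635139, against 322074 to 380507 in the other 11 libraries, and RNAs made by RNA polymerase III took 19.1% of that sum. In RSPO2 replicate 3 these RNAs took 2.30%. Replicate 1 of every arm also had higher cell cycle genes than replicates 2 and 3 of its arm, with medians of 26.4 to 49.4 FPKM against 7.85 to 19.5 FPKM. In bulk RNA, fewer cells of a type and less RNA per cell cannot be told apart.

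Adam12, Slc36a2, Gfra2 and Fbn1 were the genes proposed as markers of the BMP2 effect, with earlier results of these data in view, so their values are a description. Adam12, which encodes a membrane-anchored metalloprotease with a disintegrin domain, was measured at 13.0, 13.5 and 14.2 FPKM in the BMP2 arm, against 1.22, 1.64 and 1.95 FPKM in Control. Adam12 with RSPO2 was at 15.4, 18.9 and 16.6 FPKM in the BMP2+RSPO2 arm, against 1.85, 1.91 and 2.01 FPKM in the RSPO2 arm. Every library with BMP2 lay above every library without it, and the averaged log2 change was 2.56 (SE 0.07, adjusted p = 2.18e-07), the smallest p of all genes tested. The effect had nearly the same size in both backgrounds, 2.62 with RSPO2 and 2.5 without (difference 0.12, 95% interval −0.20 to 0.44, adjusted p = 0.622).

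Slc36a2 encodes a proton-coupled transporter of small amino acids such as glycine and proline. Its level was 34.4, 28.2 and 27.8 FPKM in the BMP2 arm, against 1.95, 3.84 and 5.18 FPKM in Control. With RSPO2, Slc36a2 was at 36.3, 69.0 and 62.4 FPKM in the BMP2+RSPO2 arm, against 0.80, 1.23 and 2.69 FPKM in the RSPO2 arm. The groups did not overlap (averaged log2 3.64, SE 0.32, adjusted p = 0.000218), and the rise was 4.48 with RSPO2 and 2.80 without, a difference that was not called (difference 1.68, 95% interval 0.83 to 2.54, adjusted p = 0.0779).

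Gfra2, the co-receptor through which neurturin acts on the receptor tyrosine kinase RET, was nearly absent with BMP2. It stood at 1.22, 0.64 and 0.59 FPKM in the BMP2 arm, against 23.2, 13.3 and 12.6 FPKM in Control. Gfra2 with RSPO2 was at 0.22, 0.16 and 0.31 FPKM in the BMP2+RSPO2 arm, against 27.6, 23.7 and 24.6 FPKM in the RSPO2 arm. The fall was seen in all libraries of both backgrounds (averaged log2 −3.82, SE 0.22, adjusted p = 1.59e-05; −4.42 with RSPO2 and −3.22 without). Fbn1 encodes fibrillin-1, the backbone of the microfibrils that hold latent TGF-β binding proteins in the matrix. It was at 0.94, 1.12 and 1.12 FPKM in the BMP2 arm, against 10.5, 9.18 and 7.66 FPKM in Control. With RSPO2, Fbn1 was at 1.17, 0.75 and 0.68 FPKM in the BMP2+RSPO2 arm, against 16.5, 18.7 and 18.1 FPKM in the RSPO2 arm. BMP2 libraries of both backgrounds stood at about the same low level, whereas the libraries without BMP2 were higher in the RSPO2 arm than in Control (averaged log2 −2.81, SE 0.19, adjusted p = 4.15e-05; −3.34 with RSPO2 and −2.29 without).

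**Figure D1:**
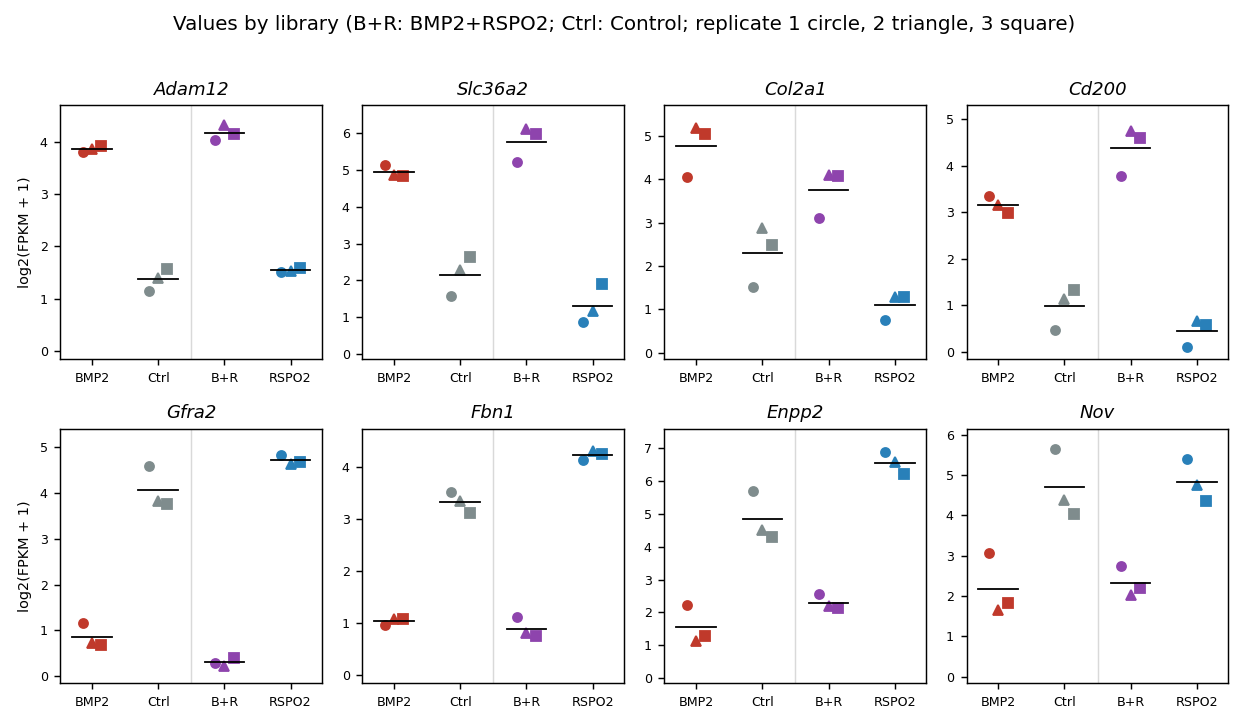
Level of 8 genes in each library on the log2(FPKM + 1) scale (y axis), by arm (x axis; Ctrl is Control and B+R is BMP2+RSPO2); markers give the replicate number and lines the mean of 3 libraries. In the upper row every library with BMP2 lies above every library without it, and in the lower row below, in both backgrounds; Adam12 ranged from 13.0 to 18.9 FPKM with BMP2 and from 1.22 to 2.01 FPKM without.

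Tests covered the 11548 genes that reached 1 FPKM in 3 or more libraries, and limma called 2666 of them in the averaged effect (23.1%). Of these, 592 were higher with BMP2 (5.13% of the genes tested) and 2074 were lower (18%). All 2666 had the same sign in both backgrounds, as did 71.4% of all genes tested. An averaged test favours genes that move one way in both backgrounds, and this model counts a difference between backgrounds as spread. The shared sign was therefore largely set by the model, and this count is a description. With the difference in the model, 3529 genes were called in the averaged effect, 694 higher and 2835 lower. In 1390 of the called genes (328 higher, 1062 lower) the 3 libraries with BMP2 did not overlap with the 3 without in either background. Of all genes tested, 13.7% were separated in this way, 3.03% with BMP2 higher and 10.7% with BMP2 lower. Separation of all 6 libraries with BMP2 from all 6 without was seen in 9.89% of genes (2.25% higher, 7.64% lower). The log2 change was 1 or more in 120 called genes and −1 or less in 241.

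The split between higher and lower genes depended on how libraries were scaled. The median log2 change of all genes tested was −0.16 on the deposited FPKM, −0.01 after median-of-ratios scaling and 0.00 after quantile normalization. With median-of-ratios scaling 2053 genes were called (17.8%), 1005 higher (8.7%) and 1048 lower (9.08%). With quantile normalization the calls numbered 2106 (18.2%), 1058 higher (9.16%) and 1048 lower (9.08%). Of the 2666 genes, 1572 were called under both scalings as well, 589 of the 592 that were higher and 983 of the 2074 that were lower. Changes of gene lists below are therefore given with their median and counts after median-of-ratios scaling as well, and are to be read against 5.13% of all genes tested called higher and 18% called lower, or 8.7% and 9.08% after that scaling. Single libraries moved the count too: it was 1425 and 1540 without BMP2+RSPO2 replicates 2 and 3, and 1576, 1339 and 1432 without RSPO2 replicates 1, 2 and 3. Without BMP2+RSPO2 replicate 1, the library that stood apart, it was 3238, and no gene list below changed its count of rises or of falls by more than 2. In all, 1263 genes (362 higher, 901 lower) were called whichever 1 of the 12 libraries was left out. Calls of single genes given below held in all 12 of these fits and under both scalings, except where stated. Of the list members given below, Smad2, Spp1, Dmp1, Ank, Enpp1, Col4a1, Col11a1, Col15a1, Dcn, Des, Notch3 and Il34 lost their calls without the replicate number in the model (adjusted p from 0.0511 to 0.188).

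More genes were called where RSPO2 was present. Within the model of 4 arms, 4159 genes were called between BMP2+RSPO2 and RSPO2 (36%), 672 higher (5.82%) and 3487 lower (30.2%). After median-of-ratios scaling it was 2768, 1302 higher and 1466 lower. Without RSPO2, where BMP2 is set against Control, 329 genes were called (2.85%), 136 higher (1.18%) and 193 lower (1.67%). The count with RSPO2 was 2496 and 2468 without RSPO2 replicates 1 and 2. The count without RSPO2 was 998 when BMP2+RSPO2 replicate 1 was left out of the model, and 104 to 156 without Control replicate 1, 2 or 3 or BMP2 replicate 2 or 3. Called in both backgrounds with the same direction were 310 genes (2.68% of those tested, 1.04% higher and 1.65% lower). They are 7.45% of the set with RSPO2 and 94.2% of the set without, and only 1 gene was called in opposite directions. Both sets of calls come from the same model and share its estimate of the spread, so they are not independent. The median absolute log2 change of these 310 genes was 1.5 with RSPO2 and 0.92 without, and it was larger with RSPO2 in 272 of them. Of the 2666 genes of the averaged effect, 2141 were called only with RSPO2, 9 only without and 206 in neither background. The median log2 change of all genes tested was −0.26 with RSPO2 and −0.06 without, and after median-of-ratios scaling both were closer to 0. Rises and falls of gene lists below are calls of the averaged effect, and such a gene need not be called in each background.

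**Figure D2:**
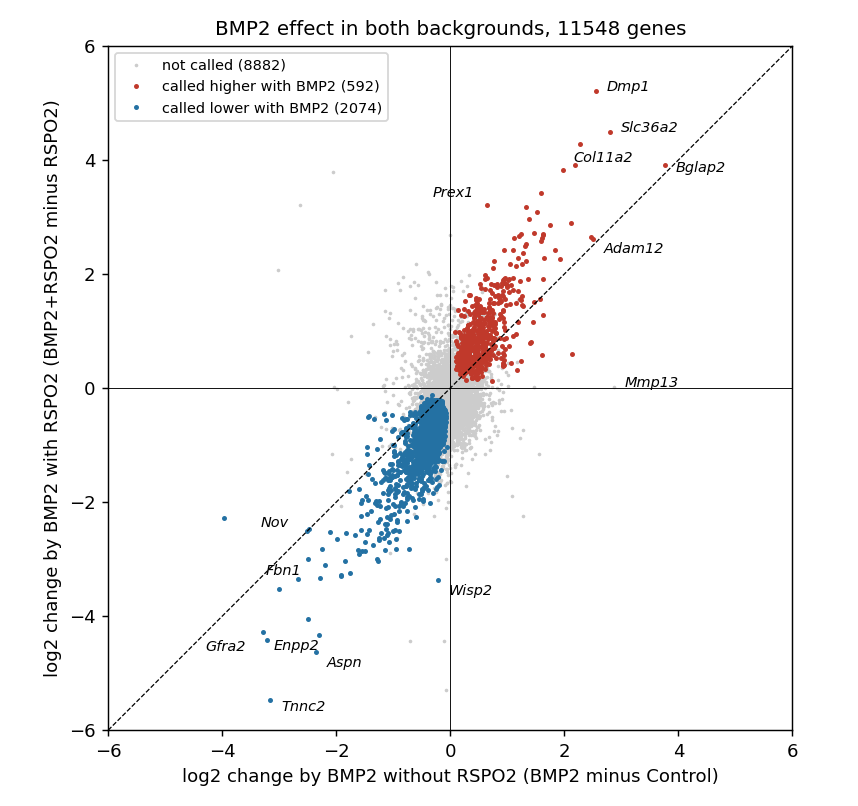
Log2 change by BMP2 with RSPO2 (y axis) against that without RSPO2 (x axis) for 11548 genes, with the 592 genes called higher and the 2074 called lower in the averaged effect in colour. The dashed line marks equal effects: Adam12 and Nov lie close to it, while Slc36a2, Tnnc2 and Prex1 lie on the side of a larger effect with RSPO2.

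The 10 largest rises among called genes with groups separated in both backgrounds were in Slc36a2, Cd200, Col11a2, Col2a1, Adam12, Cdo1, Slc8a3, Ibsp, Spns2 and Sgms2. Cd200, a surface glycoprotein that restrains myeloid cells through its receptor, had 9.17, 7.94 and 6.92 FPKM in the BMP2 arm, against 0.38, 1.20 and 1.52 FPKM in Control. In the RSPO2 background Cd200 had 12.8, 25.7 and 23.1 FPKM in the BMP2+RSPO2 arm, against 0.08, 0.58 and 0.50 FPKM in the RSPO2 arm (averaged log2 3.05, SE 0.32, adjusted p = 0.000435). This group holds 2 cartilage collagen genes. Col2a1, the chain of type II collagen, averaged 20.5 ± 10.9 FPKM with BMP2 and 2.74 ± 2.25 FPKM without (SD, n = 6 each here and below; averaged log2 2.56, SE 0.11, adjusted p = 3.2e-06), and its rise was 2.65 with RSPO2 and 2.47 without (difference 0.19, 95% interval −0.29 to 0.66). Col11a2, a chain of type XI collagen, averaged 123 ± 76.1 FPKM with BMP2 and 15.6 ± 9.45 FPKM without (averaged log2 2.90, SE 0.35, adjusted p = 0.00088). Cdo1, the cysteine dioxygenase that starts taurine synthesis, averaged 22.2 ± 11 FPKM with BMP2 and 2.83 ± 0.949 FPKM without (log2 2.51, adjusted p = 0.00064). Slc8a3 is a sodium-calcium exchanger and averaged 30.5 ± 10.7 FPKM with BMP2 and 5.00 ± 3.11 FPKM without (log2 2.5, adjusted p = 0.00177). A pair of sphingolipid genes was among the 10. Spns2, the exporter of sphingosine-1-phosphate, averaged 24.0 ± 12.7 FPKM with BMP2 and 3.94 ± 2.46 FPKM without (log2 2.31, adjusted p = 0.0011), with BMP2+RSPO2 replicate 1 at 7.08 FPKM and the other 5 libraries with BMP2 at 16.9 FPKM or more. Sgms2, which makes sphingomyelin, averaged 114 ± 62.0 FPKM with BMP2 and 21.1 ± 6.95 FPKM without (log2 2.25, adjusted p = 0.00233).

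The 10 largest falls were in Tnnc2, Gfra2, Enpp2, Aspn, Igfbp2, Apod, Itgbl1, Fbn1, Mrgprf and Gdf6. Tnnc2, the calcium-binding troponin C of fast skeletal muscle, was at 3.29, 2.12 and 2.10 FPKM in the BMP2 arm, against 43.5, 23.1 and 26.6 FPKM in Control. With RSPO2, Tnnc2 was at 0, 0.96 and 0.74 FPKM in the BMP2+RSPO2 arm, against 83.1, 51.7 and 65.4 FPKM in the RSPO2 arm (averaged log2 −4.31, SE 0.43, adjusted p = 0.000336). It made up nearly all of the summed level of 5 skeletal muscle markers, which was 0 to 3.29 FPKM with BMP2 and 23.3 to 83.5 FPKM without; Myod1 and Ckm were listed at 0 in all libraries. Enpp2 encodes autotaxin, the secreted enzyme that makes lysophosphatidic acid, and stood at 3.71, 1.17 and 1.42 FPKM in the BMP2 arm, against 51.3, 21.6 and 18.5 FPKM in Control. Enpp2 with RSPO2 was at 4.92, 3.53 and 3.34 FPKM in the BMP2+RSPO2 arm, against 117, 94.5 and 73.9 FPKM in the RSPO2 arm (averaged log2 −3.78, SE 0.21, adjusted p = 1.24e-05). Apod, a secreted lipid-binding lipocalin, ranged from 0 to 0.57 FPKM in the 6 libraries with BMP2, with a median of 0.190, against 6.25 to 17.2 FPKM in the 6 without, with a median of 11.4 (log2 −3.27, adjusted p = 3.92e-06). Itgbl1, a secreted protein with integrin-like repeats, was listed at 0 in the 3 BMP2+RSPO2 libraries and at 0.05 to 0.11 FPKM in the BMP2 arm, against 4.47 to 10.5 FPKM without BMP2 (log2 −3.01, adjusted p = 1.24e-05). Mrgprf, an orphan G-protein-coupled receptor, averaged 3.38 ± 0.647 FPKM with BMP2 and 29.6 ± 10.3 FPKM without (log2 −2.75, adjusted p = 3.46e-06). Among the other striated muscle genes Tnnc1 and Myl4 were tested and not called.

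Listed feedback and target genes of BMP signalling mostly rose. Of 19 BMP-SMAD feedback and target genes, 18 passed the filter (Hey1 did not), 11 rose and 2 fell (median log2 change 0.65, and 0.75 after median-of-ratios scaling, with 12 rises and 2 falls). By background, 11 were called higher and 3 lower with RSPO2, and 4 higher and 0 lower without. Of all genes tested, 5.82% were called higher and 30.2% lower with RSPO2, and 1.18% and 1.67% without. Id1, an inhibitor of basic helix-loop-helix factors and the classical early BMP target, was low but separated, at 2.44, 3.26 and 3.61 FPKM in the BMP2 arm, against 1.62, 1.24 and 0.71 FPKM in Control. With RSPO2, Id1 was at 5.34, 3.20 and 3.56 FPKM in the BMP2+RSPO2 arm, against 0.37, 0.18 and 0.46 FPKM in the RSPO2 arm (averaged log2 1.41, SE 0.21, adjusted p = 0.00254). Its rise without RSPO2 was not called (log2 0.92, adjusted p = 0.064). Id3 averaged 72.2 ± 15.7 FPKM with BMP2 and 28.8 ± 12.9 FPKM without (log2 1.40, adjusted p = 0.00442) and Id2 11.9 ± 4.20 FPKM with BMP2 and 5.54 ± 3.04 FPKM without (log2 1.05, adjusted p = 0.0011). Id4 went the other way, with 0 to 0.40 FPKM in the 6 libraries with BMP2, with a median of 0.125, against 0.60 to 1.63 FPKM in the 6 without, with a median of 0.995 (log2 −0.80, adjusted p = 0.00635). Smad6, the inhibitory SMAD that BMP induces, averaged 8.46 ± 1.96 FPKM with BMP2 and 3.66 ± 0.737 FPKM without (averaged log2 1.01, SE 0.08, adjusted p = 0.000103), with nearly equal rises of 0.92 with RSPO2 and 1.1 without. Smad7, the other inhibitory SMAD, missed the threshold at 2.96 ± 0.805 FPKM with BMP2 and 1.98 ± 0.484 FPKM without (adjusted p = 0.052), though it was called higher under both scalings. Bambi, a pseudoreceptor that blocks signalling, averaged 4.77 ± 1.33 FPKM with BMP2 and 1.95 ± 0.572 FPKM without (log2 0.96, adjusted p = 0.00415), and the helix-loop-helix factor gene Atoh8 ranged from 3.81 to 9.44 FPKM in the 6 libraries with BMP2, with a median of 4.94, against 0.33 to 2.48 FPKM in the 6 without, with a median of 1.41 (log2 1.43, adjusted p = 0.000271).

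The 4 listed homeobox genes of the Dlx family, which BMP induces in skeletal progenitors, were called higher. Dlx5 was at 40.1, 38.2 and 38.8 FPKM in the BMP2 arm, against 18.7, 27.2 and 30.5 FPKM in Control. Dlx5 with RSPO2 was at 40.0, 40.0 and 40.1 FPKM in the BMP2+RSPO2 arm, against 11.5, 16.4 and 23.9 FPKM in the RSPO2 arm (averaged log2 0.92, SE 0.16, adjusted p = 0.00486). The 6 libraries with BMP2 thus stood within 38.2 to 40.1 FPKM. The rise of Dlx5 was called with RSPO2 (log2 1.22, adjusted p = 0.00219) and not without (log2 0.62, adjusted p = 0.153). Dlx2 averaged 4.98 ± 0.369 FPKM with BMP2 and 2.5 ± 0.760 FPKM without (log2 0.80, adjusted p = 0.00105), Dlx3 12.2 ± 4.62 FPKM with BMP2 and 4.76 ± 1.65 FPKM without (log2 1.17, adjusted p = 0.00803) and Dlx6 3.46 ± 0.391 FPKM with BMP2 and 1.96 ± 0.707 FPKM without (log2 0.62, adjusted p = 0.00874). The related Msx genes moved in opposite directions. Msx2 averaged 1.28 ± 0.513 FPKM with BMP2 and 0.693 ± 0.224 FPKM without (log2 0.41, adjusted p = 0.0329), but its call was kept only where a replicate 1 of BMP2, BMP2+RSPO2 or RSPO2 was the library left out. Msx1 averaged 1.31 ± 0.127 FPKM with BMP2 and 2.02 ± 0.156 FPKM without (log2 −0.39, adjusted p = 0.00774), and quantile normalization ended this call.

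The secreted antagonists of BMP and activin fell in the main. Of 14 listed, 13 are in the table, 10 were tested, 2 rose and 6 fell (median log2 change −0.71, and −0.55 after median-of-ratios scaling, with 2 rises and 5 falls). Grem1, which encodes gremlin 1, was at 6.08, 3.27 and 3.75 FPKM in the BMP2 arm, against 27.5, 17.6 and 16.0 FPKM in Control. In the RSPO2 background Grem1 had 7.38, 5.95 and 4.89 FPKM in the BMP2+RSPO2 arm, against 43.0, 43.3 and 41.5 FPKM in the RSPO2 arm (averaged log2 −2.32, SE 0.15, adjusted p = 2.28e-05). Nog, which encodes noggin, was at 0.42, 0.44 and 1.03 FPKM in the BMP2 arm, against 1.62, 2.68 and 1.07 FPKM in Control. Nog with RSPO2 was at 0, 0.66 and 0.81 FPKM in the BMP2+RSPO2 arm, against 2.93, 5.31 and 5.82 FPKM in the RSPO2 arm (averaged log2 −1.35, SE 0.26, adjusted p = 0.00698). Fstl1, a follistatin-like glycoprotein, averaged 62.6 ± 15.1 FPKM with BMP2 and 155 ± 32.1 FPKM without (log2 −1.3, adjusted p = 0.0021), and the BMP-binding proteins Twsg1 (twisted gastrulation) and Chrd (chordin) fell by 0.72 and 0.71 on the log2 scale (adjusted p = 0.00325 and 0.0114). Fst, the activin antagonist follistatin, fell as well (log2 −0.81, adjusted p = 0.0264). That call was lost without BMP2+RSPO2 replicate 2 or 3 or without any RSPO2 library (adjusted p up to 0.0759), and under both scalings. Bmper, a BMP-binding modulator, was among those that rose (log2 0.40, adjusted p = 0.0176). The Bmper call was lost without BMP2+RSPO2 replicate 2, RSPO2 replicate 2 or RSPO2 replicate 3 (adjusted p up to 0.0525).

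**Figure D3:**
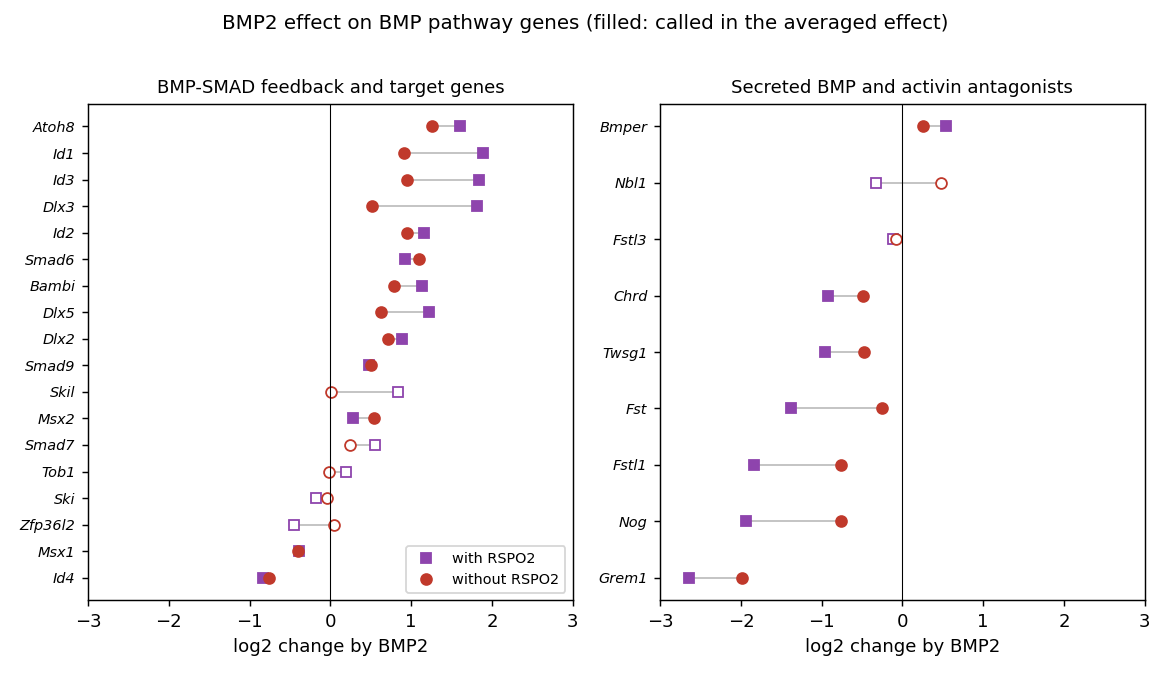
Log2 change by BMP2 (x axis) with RSPO2 (squares) and without RSPO2 (circles) for the tested BMP-SMAD targets (left) and 9 of the 10 tested secreted antagonists (right), ordered by the averaged change; filled symbols are called in the averaged effect. Id1 lies at 1.89 with RSPO2 and 0.92 without, and Grem1 at −2.64 with RSPO2 and −1.99 without.

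Among ligand genes of the superfamily, 10 of 18 were tested, 2 rose and 3 fell (median log2 change −0.23, and −0.05 after median-of-ratios scaling, with 2 rises and 3 falls). Bmp2, the gene of the added ligand, was listed at 0 in all libraries. Gdf6, a BMP family ligand of joint and skull, ranged from 0.07 to 0.71 FPKM in the 6 libraries with BMP2, with a median of 0.175, against 5.02 to 11.3 FPKM in the 6 without, with a median of 5.93 (averaged log2 −2.66, SE 0.21, adjusted p = 0.000109). Inhba, the activin A subunit, ranged from 4.57 to 14.3 FPKM in the 6 libraries with BMP2, with a median of 5.54, against 19.9 to 57.3 FPKM in the 6 without, with a median of 31.9 (log2 −2.18, adjusted p = 0.00062). The TGF-β genes diverged: Tgfb3 averaged 16.5 ± 2.76 FPKM with BMP2 and 32.8 ± 5.95 FPKM without (log2 −0.95, adjusted p = 0.000501), whereas Tgfb1 averaged 47.8 ± 9.63 FPKM with BMP2 and 21.8 ± 6.40 FPKM without (log2 1.13, adjusted p = 0.00118). Bmp4 was at 33.2 ± 25.4 FPKM with BMP2 and 34.6 ± 14.3 FPKM without and was not called (adjusted p = 0.606). Of the receptor and SMAD genes, 15 of 19 were tested, 0 rose and 5 fell (median log2 change −0.16, which became 0.01 after median-of-ratios scaling, with 0 rises and 4 falls). Tgfbr2, the type II TGF-β receptor, was the largest of these falls at 18.6, 18.5 and 17.3 FPKM in the BMP2 arm, against 49.3, 37.9 and 33.8 FPKM in Control. With RSPO2, Tgfbr2 was at 17.5, 18.6 and 16.6 FPKM in the BMP2+RSPO2 arm, against 57, 58.4 and 51.1 FPKM in the RSPO2 arm (averaged log2 −1.35, SE 0.11, adjusted p = 0.000148). The type I receptor gene Acvr1 averaged 10.8 ± 1.19 FPKM with BMP2 and 14.6 ± 2.19 FPKM without (log2 −0.40, adjusted p = 0.00621). The BMP receptor genes Bmpr1a and Bmpr2 and the SMAD genes Smad1, Smad4 and Smad5 were not called, with averaged log2 changes between −0.16 and 0.16. Smad2 was among the 5 falls (log2 −0.37, adjusted p = 0.0337). Its call was lost in 7 of the 12 fits with a library left out and without the replicate number (adjusted p = 0.0556). Smad9, counted with the BMP targets above, rose (log2 0.49, adjusted p = 0.0433), a call lost in 10 of the 12 fits. Calls of Smad2 and Smad9 under the scalings are not reported here.

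The promoters of 4 genes of this response are shown because SMAD1 and SMAD5 are known to bind the GC-rich element GGCGCC. All 4 hold it in a window, so they do not stand for the response as a whole. They are Alpl, Lifr and Dlx2, which rose, and Grem1, which fell. The windows are the 250 bases before a RefSeq start on GRCm38.p6, 5′ to 3′ on the gene's strand, with GGCGCC in capitals. They span chr4:137796385-137796634 (minus strand), chr15:7129322-7129571 (plus), chr2:71546755-71547004 (minus) and chr2:113758649-113758898 (minus). Alpl and Lifr each have 2 starts in the RefSeq table, and the windows of their other starts (chr4:137766476-137766725 and chr15:7140292-7140541) hold 0 copies of the element.
Alpl: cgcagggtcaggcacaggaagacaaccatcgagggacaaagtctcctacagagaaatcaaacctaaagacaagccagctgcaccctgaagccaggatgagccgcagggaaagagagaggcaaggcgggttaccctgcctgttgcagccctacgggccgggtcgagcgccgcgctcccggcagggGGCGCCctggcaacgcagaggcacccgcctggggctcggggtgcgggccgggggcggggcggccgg
Lifr: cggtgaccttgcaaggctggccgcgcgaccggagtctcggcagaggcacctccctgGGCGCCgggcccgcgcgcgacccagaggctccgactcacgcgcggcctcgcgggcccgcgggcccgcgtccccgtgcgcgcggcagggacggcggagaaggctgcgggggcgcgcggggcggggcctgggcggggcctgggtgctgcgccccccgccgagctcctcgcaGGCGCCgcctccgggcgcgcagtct
Dlx2: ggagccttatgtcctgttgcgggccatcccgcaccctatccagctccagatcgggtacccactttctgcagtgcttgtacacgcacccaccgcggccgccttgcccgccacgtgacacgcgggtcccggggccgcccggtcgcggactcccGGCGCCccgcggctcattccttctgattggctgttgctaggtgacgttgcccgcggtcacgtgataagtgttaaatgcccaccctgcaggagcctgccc
Grem1: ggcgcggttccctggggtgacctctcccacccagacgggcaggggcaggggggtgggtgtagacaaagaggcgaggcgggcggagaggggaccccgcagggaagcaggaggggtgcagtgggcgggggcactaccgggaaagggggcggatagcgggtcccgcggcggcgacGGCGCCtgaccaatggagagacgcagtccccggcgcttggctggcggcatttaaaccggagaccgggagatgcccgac
In Alpl the first base of the element lies 66 bases before the start, in Dlx2 99 and in Grem1 78, and Lifr holds 2 copies, 194 and 25 bases before it. GGCGCC, which reads the same on both strands, was in at least 1 window of 21% of all tested genes with a window (1641 of 7811), of 23.7% of those called higher (99 of 417) and of 18.3% of those called lower (265 of 1451). Among the 86 named genes 58 had a window and 14 held the element. Besides the 4 shown, these were Des, Sgms2, Fgfr3, Adamts9 and Ptch1, which rose, and Podn, Cebpa, Col4a1, Igf1 and Gas1, which fell. The windows of Smad6, Atoh8, Runx2, Ibsp and Dmp1, which rose, held 0 copies. The palindrome GTCTAGAC, another SMAD-binding sequence, was in 0.205% of these genes and in 1 named gene, Runx3. A composite of GGCGCC followed after 5 bases by GTCT, searched on both strands and holding the first motif, was in 0.115% of these genes and in 0 of the 58. These matches describe letters in a window, not binding.

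Most osteoblast transcription factor genes rose. All 12 listed were tested, 8 rose and 1, Msx1, fell (median log2 change 0.63, and 0.78 after median-of-ratios scaling, with 10 rises and 1 fall). By background, 7 were called higher and 1 lower with RSPO2, and 1 higher and 0 lower without. Runx2, the master regulator of the lineage, was at 33.9, 40.4 and 42.7 FPKM in the BMP2 arm, against 24.5, 32.7 and 32.5 FPKM in Control. Runx2 with RSPO2 was at 48.0, 40.1 and 42.6 FPKM in the BMP2+RSPO2 arm, against 21.6, 21.2 and 26.9 FPKM in the RSPO2 arm (averaged log2 0.63, SE 0.12, adjusted p = 0.00791). Its rise without RSPO2 was not called (log2 0.38, adjusted p = 0.228). Sp7, which encodes osterix and acts downstream of Runx2, was at 192, 231 and 222 FPKM in the BMP2 arm, against 86.5, 129.8 and 157 FPKM in Control. With RSPO2, Sp7 was at 170.1, 309.7 and 305 FPKM in the BMP2+RSPO2 arm, against 61.8, 64.8 and 96.4 FPKM in the RSPO2 arm (averaged log2 1.3, SE 0.19, adjusted p = 0.00234). Mef2c averaged 7.31 ± 5.16 FPKM with BMP2 and 1.94 ± 0.631 FPKM without (log2 1.33, adjusted p = 0.0174). Atf4 and Cbfb, which are expressed widely, were not called (log2 −0.17 and 0.13).

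Bone matrix and mineralization genes showed the largest median rise of the lists tested. Of 24 listed, 20 are in the table, 19 were tested, 13 rose and 3 fell (median log2 change 1.08, and 1.14 after median-of-ratios scaling, with 14 rises and 1 fall). By background, 14 were called higher and 3 lower with RSPO2, and 4 higher and 0 lower without. Alpl, the phosphatase that frees phosphate for mineral, was at 23.2, 18.0 and 18.7 FPKM in the BMP2 arm, against 9.20, 8.64 and 8.30 FPKM in Control. In the RSPO2 background Alpl had 24.7, 35.9 and 35.0 FPKM in the BMP2+RSPO2 arm, against 8.65, 5.45 and 8.83 FPKM in the RSPO2 arm (averaged log2 1.52, SE 0.19, adjusted p = 0.00102). Ibsp, which encodes bone sialoprotein, ranged from 1605 to 2973 FPKM in the 6 libraries with BMP2, with a median of 2064, against 232 to 793 FPKM in the 6 without, with a median of 422 (averaged log2 2.31, SE 0.29, adjusted p = 0.00111). Dmp1, an acidic matrix protein of late osteoblasts and osteocytes, was at 4.25, 233 and 191 FPKM in the BMP2 arm, against 0.16, 27.1 and 34.8 FPKM in Control. With RSPO2, Dmp1 was at 21.4, 733 and 732 FPKM in the BMP2+RSPO2 arm, against 0.19, 9.78 and 17.4 FPKM in the RSPO2 arm (averaged log2 3.88, SE 0.49, adjusted p = 0.00106). Replicate 1 was far below replicates 2 and 3 in every arm, and the groups overlap without RSPO2. Without the replicate number in the model 9 of the list's genes rose, and the calls of Dmp1 (adjusted p = 0.0695), Spp1 (0.188), Ank (0.0937) and Enpp1 (0.0688) were lost. The call of Enpp1 (log2 1.08, adjusted p = 0.0325) was also lost in 7 of the 12 fits with a library left out (adjusted p up to 0.09). Its calls under the scalings are not reported here. Spp1 (osteopontin) had the same replicate pattern as Dmp1, at 380.0, 6354 and 5866 FPKM in the BMP2 arm, against 201, 1616 and 1402 FPKM in Control. Spp1 with RSPO2 was at 215, 6051 and 6196 FPKM in the BMP2+RSPO2 arm, against 154, 765 and 587 FPKM in the RSPO2 arm (averaged log2 1.97, SE 0.34, adjusted p = 0.00464). Bglap2, an osteocalcin gene whose reads may be split with its near-identical copies, was at 57.9 FPKM in BMP2+RSPO2 replicate 1 and at 602 to 1380.4 FPKM in the other 5 libraries with BMP2, against 14.5 to 68.3 FPKM without (log2 3.84, adjusted p = 0.00529).

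The rises reached the most abundant matrix genes too. Col1a1, the α1 chain of type I collagen, averaged 9901 ± 2415 FPKM with BMP2 and 5361 ± 1188 FPKM without (log2 0.88, adjusted p = 0.00761), a call that quantile normalization ended. Col1a2, the other chain, averaged 4952 ± 1461 FPKM with BMP2 and 2784 ± 417 FPKM without (log2 0.79, adjusted p = 0.00736). Sparc (osteonectin) averaged 7216 ± 2338 FPKM with BMP2 and 3645 ± 669 FPKM without (log2 0.94, adjusted p = 0.00884). Ifitm5, a membrane protein of mineralizing osteoblasts, averaged 359.8 ± 125 FPKM with BMP2 and 95.4 ± 39.6 FPKM without (log2 1.93, adjusted p = 0.00445). Smpd3, a sphingomyelinase needed for mineralization, averaged 199.7 ± 64.5 FPKM with BMP2 and 60.3 ± 23.9 FPKM without (log2 1.76, adjusted p = 0.00238), and the pyrophosphate exporter gene Ank 80.0 ± 54.1 FPKM with BMP2 and 24.9 ± 9.03 FPKM without (log2 1.35, adjusted p = 0.00495). Pth1r, the receptor of parathyroid hormone, averaged 208 ± 68.9 FPKM with BMP2 and 92.1 ± 40.6 FPKM without (log2 1.20, adjusted p = 0.00378). The members that fell were Omd (osteomodulin), the cadherin gene Cdh11 and the phosphate transporter gene Slc20a2 (log2 −0.80, −0.37 and −0.37). Only Slc20a2 stayed called under both scalings; Omd lost its call also without BMP2+RSPO2 replicate 2 or RSPO2 replicate 2, and Cdh11 without any of 7 libraries (BMP2 replicate 2, BMP2+RSPO2 replicates 2 and 3, Control replicate 1 and the RSPO2 libraries).

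Cartilage genes were called in part. Of 23 chondrocyte genes listed, 10 were tested, 5 rose and 2 fell (median log2 change 0.37, and 0.48 after median-of-ratios scaling, with 5 rises and 1 fall). Beside Col2a1 and Col11a2, the transcription factor genes Sox9 (6.24 ± 1.79 FPKM with BMP2 and 4.11 ± 1.60 FPKM without; log2 0.53, adjusted p = 0.0201) and Runx3 (13.5 ± 1.38 FPKM with BMP2 and 10.4 ± 0.444 FPKM without; log2 0.35, adjusted p = 0.00694) rose. Col11a1, another chain of type XI collagen, fell (30.6 ± 6.02 FPKM with BMP2 and 39.2 ± 7.37 FPKM without; log2 −0.35, adjusted p = 0.0191), and its call was lost under both scalings, without BMP2+RSPO2 replicate 3, Control replicate 1 or RSPO2 replicate 3, and without the replicate number (adjusted p = 0.107). The Sox9 call was lost without BMP2+RSPO2 replicate 2, RSPO2 replicate 2 or RSPO2 replicate 3 (adjusted p up to 0.0571). Col10a1, the collagen of hypertrophic cartilage, was at 0.20 to 4.71 FPKM in the 6 libraries with BMP2, with a median of 0.935, against 0 to 0.05 FPKM in the 6 without, with a median of 0.0100 (log2 1.21, adjusted p = 0.0323). Its call was kept in 4 of the 12 fits, those without BMP2 replicate 1 or 3, BMP2+RSPO2 replicate 1 or Control replicate 1. Acan and Matn1, which define mature cartilage, were listed at 0 in all libraries, and the summed level of 6 chondrocyte markers was 20.2 to 48.0 FPKM with BMP2 and 5.29 to 15.0 FPKM without. Of 5 tested osteocyte genes, Dmp1 rose and Pdpn, podoplanin, fell (log2 −0.64, adjusted p = 0.00629; list median log2 change 0.10, and 0.28 after median-of-ratios scaling, with 2 rises and 1 fall); Sost, Fgf23 and Mepe did not pass the filter.

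**Figure D4:**
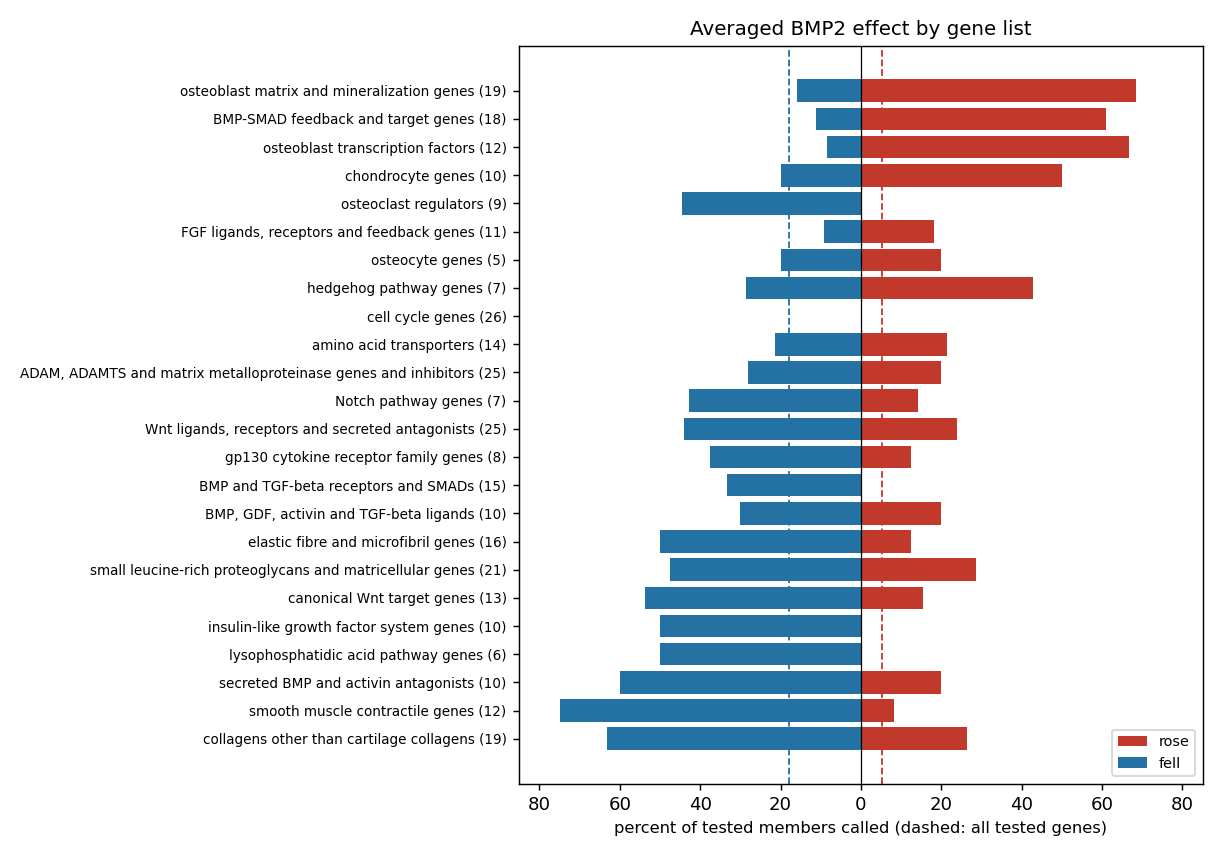
Share of the tested members of each gene list (number in brackets) that rose (right of 0) or fell (left of 0) in the averaged BMP2 effect, in percent, for lists with 5 or more tested members, ordered by median log2 change. Dashed lines mark the share of all tested genes, 5.13% higher and 18% lower; bone matrix, BMP target and osteoblast factor lists stand furthest beyond the first line, and collagens, smooth muscle genes and BMP antagonists beyond the second.

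All 22 listed microfibril and elastic fibre genes are in the table, 16 were tested, 8 fell and 2 rose, where 18% of all genes tested fell and 5.13% rose (median log2 change −0.25, and −0.07 after median-of-ratios scaling, with 4 rises and 6 falls). Fbn2, the fetal fibrillin, averaged 3.96 ± 1.17 FPKM with BMP2 and 27.3 ± 4.50 FPKM without (averaged log2 −2.54, SE 0.15, adjusted p = 1.95e-05). Mfap4, a microfibril-associated glycoprotein, was listed at 0 in 5 of 6 libraries with BMP2 and at 0.10 FPKM in the sixth, against 1.08 to 4.36 FPKM without (log2 −1.67, adjusted p = 0.00062). Mfap5 averaged 5.50 ± 2.73 FPKM with BMP2 and 15.0 ± 4.16 FPKM without (log2 −1.36, adjusted p = 0.00271) and Fbln5, a fibulin that links elastin to cells, 4.43 ± 2.02 FPKM with BMP2 and 16.5 ± 3.75 FPKM without (log2 −1.75, adjusted p = 0.00258). Elastin itself (Eln) did not pass the filter. The lysyl oxidase genes Lox (271 ± 34.6 FPKM with BMP2 and 178 ± 33.9 FPKM without; log2 0.62, adjusted p = 0.00619) and Loxl4 (66.7 ± 43.0 FPKM with BMP2 and 21.8 ± 6.46 FPKM without; log2 1.38, adjusted p = 0.00842), whose enzymes crosslink collagen and elastin, were the members that rose.

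Collagen genes other than those of cartilage split by type. Of 23 listed, 19 were tested, 12 fell and 5 rose (median log2 change −1.0, and −0.82 after median-of-ratios scaling, with 5 rises and 11 falls). Col3a1, a fibrillar collagen of soft tissue, averaged 242 ± 151 FPKM with BMP2 and 755 ± 20 FPKM without (log2 −1.89, adjusted p = 0.00272). Col8a1, a short-chain network collagen, was at 29.1, 21.2 and 21.2 FPKM in the BMP2 arm, against 92.8, 64.5 and 59.4 FPKM in Control. With RSPO2, Col8a1 was at 38.5, 30.4 and 27.9 FPKM in the BMP2+RSPO2 arm, against 139.6, 119 and 124 FPKM in the RSPO2 arm (averaged log2 −1.75, SE 0.10, adjusted p = 1.24e-05). The 3 type VI chains Col6a1, Col6a2 and Col6a3 fell by 0.94, 1.02 and 1.0 on the log2 scale, and the basement membrane chains Col4a1 and Col4a2 by 1.1 and 1.13. The rises were those of the type I chains, Col5a2, Col15a1 and Col24a1. Col5a2 lost its call without BMP2+RSPO2 replicate 2 or 3 or any RSPO2 library, and Col15a1 was called in 3 of the 12 fits, those without BMP2 replicate 2 or 3 or Control replicate 2. Col24a1, a fibrillar collagen of bone, averaged 18.1 ± 8.16 FPKM with BMP2 and 3.64 ± 1.27 FPKM without (log2 1.97, adjusted p = 0.00114).

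Small leucine-rich proteoglycan and matricellular genes moved both ways. Of 31 listed, 25 are in the table, 21 were tested, 10 fell and 6 rose (median log2 change −0.34, and −0.18 after median-of-ratios scaling, with 7 rises and 7 falls). Aspn (asporin), which binds collagen and TGF-β, was at 64.2, 66.1 and 73.8 FPKM in the BMP2 arm, against 395, 301 and 362 FPKM in Control. Aspn with RSPO2 was at 26.3, 9.32 and 7.23 FPKM in the BMP2+RSPO2 arm, against 275, 345 and 372 FPKM in the RSPO2 arm (averaged log2 −3.49, SE 0.44, adjusted p = 0.00107). Lum (lumican) averaged 53.8 ± 47.0 FPKM with BMP2 and 216 ± 175 FPKM without (log2 −1.99, adjusted p = 0.0021). Ogn (osteoglycin) averaged 46.2 ± 28.4 FPKM with BMP2 and 169 ± 19.1 FPKM without (log2 −2.15, adjusted p = 0.00361). Nov (CCN3), a matricellular protein that binds BMP2, was at 7.44, 2.14 and 2.52 FPKM in the BMP2 arm, against 49.2, 19.8 and 15.5 FPKM in Control. In the RSPO2 background Nov had 5.73, 3.07 and 3.57 FPKM in the BMP2+RSPO2 arm, against 40.7, 25.7 and 19.6 FPKM in the RSPO2 arm (averaged log2 −2.51, SE 0.13, adjusted p = 1.2e-05). Its fall was the same in both backgrounds, −2.51 with RSPO2 and −2.51 without (difference 0.00, 95% interval −0.63 to 0.64). Other CCN genes went differently: Ctgf (CCN2) averaged 22.0 ± 9.72 FPKM with BMP2 and 9.36 ± 3.44 FPKM without (log2 1.13, adjusted p = 0.0133) and Wisp1 (CCN4) 50.7 ± 17.2 FPKM with BMP2 and 26.8 ± 2.86 FPKM without (log2 0.84, adjusted p = 0.00284). Dcn (decorin) averaged 375 ± 158 FPKM with BMP2 and 239 ± 114 FPKM without (log2 0.67, adjusted p = 0.00746) and Tnc (tenascin C) 230.0 ± 124 FPKM with BMP2 and 130.3 ± 42.1 FPKM without (log2 0.71, adjusted p = 0.0104).

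Of 43 protease genes of the ADAM, ADAMTS and matrix metalloproteinase families and their inhibitors, 41 are in the table, 25 were tested, 5 rose and 7 fell (median log2 change −0.09). The balance turned over with scaling, to 7 rises and 3 falls after median-of-ratios scaling (median 0.08) and 8 rises and 3 falls after quantile normalization (median 0.04), and without the replicate number there were 5 rises and 2 falls. Adam12 rose most. Htra1, a secreted serine protease that cleaves matrix and TGF-β proteins, averaged 26.7 ± 10.4 FPKM with BMP2 and 90.8 ± 10.1 FPKM without (averaged log2 −1.81, SE 0.23, adjusted p = 0.00102). Adamts9, an aggrecan-cleaving protease, averaged 2.44 ± 0.655 FPKM with BMP2 and 1.08 ± 0.158 FPKM without (log2 0.71, adjusted p = 0.00507). Mmp13, the collagenase of hypertrophic cartilage and bone, was at 4.29, 38.1 and 40.3 FPKM in the BMP2 arm, against 0.96, 2.43 and 2.26 FPKM in Control. Mmp13 with RSPO2 was at 0.28, 0.13 and 0.13 FPKM in the BMP2+RSPO2 arm, against 0.17, 0.18 and 0.13 FPKM in the RSPO2 arm. All 3 BMP2 libraries lay above the other 9, and the averaged change was not called (adjusted p = 0.104).

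Among smooth muscle contractile genes, 9 of 12 tested fell and 1, Des, rose (median log2 change −0.90, and −0.72 after median-of-ratios scaling, with 1 rise and 8 falls). Acta2, smooth muscle α-actin, was at 590.0, 585 and 623 FPKM in the BMP2 arm, against 1087, 1241 and 1243 FPKM in Control. With RSPO2, Acta2 was at 275, 241 and 244 FPKM in the BMP2+RSPO2 arm, against 1005, 1327 and 1209.8 FPKM in the RSPO2 arm (averaged log2 −1.60, SE 0.22, adjusted p = 0.00154). Tagln (transgelin) averaged 82.4 ± 38.2 FPKM with BMP2 and 253 ± 80.7 FPKM without (log2 −1.67, adjusted p = 0.0021), and Itga8, an integrin chain of contractile mesenchyme, 0.918 ± 0.60 FPKM with BMP2 and 7.83 ± 2.06 FPKM without (log2 −2.22, adjusted p = 0.000496). Lmod1 averaged 3.58 ± 1.23 FPKM with BMP2 and 10.4 ± 1.25 FPKM without (log2 −1.36, adjusted p = 0.00149). Myh11, Cnn1 and Myocd, the markers of differentiated smooth muscle, did not pass the filter. Desmin (Des) averaged 2.70 ± 0.798 FPKM with BMP2 and 1.46 ± 0.547 FPKM without (log2 0.59, adjusted p = 0.00118), and this call ended without the replicate number in the model.

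Of 18 canonical Wnt target genes 13 were tested, 7 fell and 2 rose, where 18% of all genes tested fell and 5.13% rose (median log2 change −0.46, and −0.32 after median-of-ratios scaling, with 3 rises and 5 falls). Axin2, the feedback scaffold induced by β-catenin, was at 3.73, 1.43 and 1.66 FPKM in the BMP2 arm, against 5.32, 3.72 and 3.47 FPKM in Control. Axin2 with RSPO2 was at 4.89, 4.37 and 4.34 FPKM in the BMP2+RSPO2 arm, against 14.4, 9.70 and 11.1 FPKM in the RSPO2 arm (averaged log2 −0.95, SE 0.13, adjusted p = 0.0015). The groups do not overlap with RSPO2 and overlap without it. Nkd2, a feedback inhibitor, was at 0.33, 0.03 and 0.10 FPKM in the BMP2 arm, against 1.80, 0.98 and 1.01 FPKM in Control. With RSPO2, Nkd2 was at 0.30, 0.39 and 0.23 FPKM in the BMP2+RSPO2 arm, against 5.92, 6.52 and 6.58 FPKM in the RSPO2 arm (averaged log2 −1.73, SE 0.27, adjusted p = 0.00277). The largest rise was in Wif1, a secreted Wnt inhibitor, at 69.0, 150.1 and 145 FPKM in the BMP2 arm, against 13.6, 38.0 and 49.2 FPKM in Control. In the RSPO2 background Wif1 had 89.6, 247 and 252 FPKM in the BMP2+RSPO2 arm, against 19.6, 43.7 and 53.9 FPKM in the RSPO2 arm (averaged log2 2.09, SE 0.11, adjusted p = 1.16e-05). The transcription factor gene Tcf7 averaged 109 ± 18.3 FPKM with BMP2 and 68.4 ± 11.3 FPKM without (log2 0.67, adjusted p = 0.0079).

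Of 37 Wnt ligands, receptors and secreted antagonists 25 were tested, 11 fell and 6 rose (median log2 change −0.12, and 0.01 after median-of-ratios scaling, with 6 rises and 10 falls). Sfrp2, a secreted frizzled-related antagonist, averaged 20.2 ± 5.72 FPKM with BMP2 and 81.7 ± 24.9 FPKM without (averaged log2 −1.96, SE 0.25, adjusted p = 0.00111). Wnt7b, a ligand that promotes bone formation, ranged from 0 to 0.58 FPKM in the 6 libraries with BMP2, with a median of 0.165, against 1.77 to 5.54 FPKM in the 6 without, with a median of 3.87 (log2 −1.84, adjusted p = 0.000336). Among the receptors, Fzd2 averaged 8.28 ± 1.73 FPKM with BMP2 and 19.8 ± 3.89 FPKM without (log2 −1.16, adjusted p = 0.00206) and Fzd5 11.9 ± 2.91 FPKM with BMP2 and 5.41 ± 2.54 FPKM without (log2 1.07, adjusted p = 0.000435). Lgr4, a receptor of R-spondins, averaged 6.05 ± 0.737 FPKM with BMP2 and 3.33 ± 0.816 FPKM without (log2 0.72, adjusted p = 0.0061). The Rspo2 transcript was at 0 to 1.65 FPKM in the 6 libraries with BMP2, with a median of 0.355, against 0.80 to 2.47 FPKM in the 6 without, with a median of 1.66 (log2 −0.78, adjusted p = 0.00884). Wnt4, another ligand, averaged 1.86 ± 0.543 FPKM with BMP2 and 0.637 ± 0.252 FPKM without (log2 0.80, adjusted p = 0.00219).

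Of 10 tested genes of the insulin-like growth factor system 5 fell and 0 rose (median log2 change −0.62, and −0.44 after median-of-ratios scaling, with 1 rise and 5 falls). Igfbp2, a secreted binding protein, was at 9.16, 14.7 and 13.0 FPKM in the BMP2 arm, against 64.5, 63.4 and 62.2 FPKM in Control. With RSPO2, Igfbp2 was at 5.97, 5.56 and 6.21 FPKM in the BMP2+RSPO2 arm, against 119.8, 145 and 149 FPKM in the RSPO2 arm (averaged log2 −3.31, SE 0.34, adjusted p = 0.000403). Igf1 itself ranged from 0.07 to 0.64 FPKM in the 6 libraries with BMP2, with a median of 0.265, against 2.36 to 8.56 FPKM in the 6 without, with a median of 5.01 (log2 −2.10, adjusted p = 0.000553). Igfbp4 averaged 11.6 ± 5.17 FPKM with BMP2 and 52.0 ± 24.6 FPKM without (log2 −2.05, adjusted p = 0.00378). Igfbp7 averaged 31.5 ± 4.37 FPKM with BMP2 and 70.9 ± 16.0 FPKM without (log2 −1.13, adjusted p = 0.00128). The lysophosphatidic acid pathway had 3 falls and 0 rises among 6 tested genes (median log2 change −0.62, and −0.45 after median-of-ratios scaling, with 0 rises and 3 falls). They were in Enpp2 and in the lipid phosphate phosphatase genes Plpp1 (9.54 ± 2.23 FPKM with BMP2 and 20.9 ± 3.51 FPKM without; averaged log2 −1.06, SE 0.07, adjusted p = 3.22e-05) and Plpp3 (log2 −1.05, adjusted p = 0.00088). Its receptor gene Lpar1 was not called (19.3 ± 3.81 FPKM with BMP2 and 17.9 ± 3.61 FPKM without).

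Hedgehog pathway genes held 3 rises and 2 falls among 7 tested (median log2 change −0.01, and 0.14 after median-of-ratios scaling, with 3 rises and 1 fall). Groups did not overlap in either background in 3 members higher with BMP2 and 2 lower (3.03% and 10.7% of all genes tested did so). The members that fell are not named here. The rises were in the pathway's own readouts Gli1 (2.4 ± 0.406 FPKM with BMP2 and 0.938 ± 0.292 FPKM without; log2 0.82, adjusted p = 0.00254) and Ptch1 (11.5 ± 4.10 FPKM with BMP2 and 5.58 ± 0.624 FPKM without; log2 0.87, adjusted p = 0.00694) and in the co-receptor gene Boc (log2 0.47, adjusted p = 0.00152); the ligand genes Ihh, Shh and Dhh did not pass the filter. Of 7 tested Notch pathway genes, the effector gene Hes1 rose (6.48 ± 2.10 FPKM with BMP2 and 1.74 ± 0.680 FPKM without; log2 1.44, adjusted p = 0.0013), and the receptor genes Notch1 and Notch3 and the ligand gene Jag1 fell (median log2 change −0.11, and 0.05 after median-of-ratios scaling, with 1 rise and 3 falls). Of 8 tested genes of the gp130 cytokine family, Lifr, the receptor of leukemia inhibitory factor, rose (33.9 ± 7.84 FPKM with BMP2 and 13.3 ± 0.591 FPKM without; averaged log2 1.26, SE 0.11, adjusted p = 0.000171), while Osmr, Il11ra1 and Il6st fell (median log2 change −0.14, and 0.03 after median-of-ratios scaling, with 1 rise and 2 falls). The call of Notch3 was lost without BMP2+RSPO2 replicate 2 or 3 or any RSPO2 library, and that of Il6st was kept only without BMP2 replicate 3 or BMP2+RSPO2 replicate 1 and was lost under both scalings. The receptor gene Fgfr3 averaged 9.11 ± 2.66 FPKM with BMP2 and 3.31 ± 1.63 FPKM without (log2 1.27, adjusted p = 0.00349), and Fgf18, a ligand of it, ranged from 0 to 0.98 FPKM in the 6 libraries with BMP2, with a median of 0.0800, against 1.11 to 6.66 FPKM in the 6 without, with a median of 3.08 (log2 −1.67, adjusted p = 0.00112). Slc1a4, a neutral amino acid transporter, fell by the same size in both backgrounds (−1.0 with RSPO2 and −1.0 without; difference 0.00, 95% interval −0.60 to 0.60; log2 −1.0, adjusted p = 0.00111). In the GDNF family, Gfra2 and Gas1 fell and Ncam1 rose among 4 tested genes (median log2 change −0.48, and −0.36 after median-of-ratios scaling, with 1 rise and 2 falls), and Ret, the receptor that Gfra2 serves, did not pass the filter. Ncam1, a neural cell adhesion molecule, lost its call without BMP2+RSPO2 replicate 2 or 3 or any RSPO2 library. Among 14 tested amino acid transporters 3 rose and 3 fell (median log2 change −0.08, and 0.07 after median-of-ratios scaling, with 3 rises and 2 falls). The share that fell was near the 18% of all genes tested. The share that rose lay above the 5.13% of all genes tested, and above 8.7% after median-of-ratios scaling. Among 9 tested osteoclast regulators 0 rose and 4 fell, of which Sema3a, a semaphorin that restrains osteoclasts, had the smallest p (15.4 ± 4.99 FPKM with BMP2 and 24.1 ± 3.66 FPKM without; log2 −0.65, adjusted p = 0.00606). The other falls, in Ccl2, Ccl7 and Il34, lost their calls in 4, 8 and 10 of the 12 fits with a library left out. Only Sema3a stayed called lower under both scalings. The median log2 change of these 9 genes was 0.27, and 0.45 after median-of-ratios scaling, with 3 rises and 2 falls. Tnfrsf11b (osteoprotegerin) was not called (178 ± 38.3 FPKM with BMP2 and 142 ± 27.0 FPKM without). Of 2 tested adipocyte genes, Cebpa fell (log2 −0.68, adjusted p = 0.00525; list median log2 change −0.39, and −0.26 after median-of-ratios scaling, with 0 rises and 1 fall), and Plin1 and Cfd were listed at 0 in all libraries.

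Cell cycle genes did not share a direction. Of 26 tested, 0 rose and 0 fell in the averaged effect, and all 26 had opposite signs in the 2 backgrounds, with a median log2 change of −0.48 with RSPO2 and 0.35 without. With RSPO2, 7 of the 26 were called lower, where 30.2% of all genes tested were called lower in that background. The averaged median log2 change of the cell cycle genes was −0.06, and 0.09 after median-of-ratios scaling, with 0 rises and 0 falls. Replicate 1 of every arm stood above the other replicates in these genes, and the part of that in the result was not tested.

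The size of the BMP2 effect differed between backgrounds in 91 genes by the test of the difference (0.788% of genes tested), 13 more positive with RSPO2 (0.113%) and 78 more negative (0.675%). In all, 2321 genes had an unadjusted p under 0.05. Of the 91, 76 belong to the averaged calls and 13 had opposite signs in the 2 backgrounds. After median-of-ratios scaling the split of 86 calls was 46 more positive and 40 more negative. Prex1, an activator of the small GTPase Rac, rose further in the presence of RSPO2, at 1.91, 1.77 and 1.58 FPKM in the BMP2 arm, against 0.41, 0.88 and 1.06 FPKM in Control. Prex1 with RSPO2 was at 7.55, 13.1 and 12.5 FPKM in the BMP2+RSPO2 arm, against 0.15, 0.22 and 0.44 FPKM in the RSPO2 arm (3.22 with RSPO2 and 0.64 without; difference 2.57, 95% interval 2.01 to 3.14, adjusted p = 0.0114). Sgms2 had the same order (3.18 with RSPO2 and 1.32 without; difference 1.86, 95% interval 1.15 to 2.57, adjusted p = 0.0427). Igfbp2 (−4.32 with RSPO2 and −2.30 without; difference −2.02, 95% interval −2.46 to −1.58, adjusted p = 0.0114), Sfrp2 (difference −1.42, 95% interval −1.88 to −0.95, adjusted p = 0.0292) and Nkd2 (difference −1.53, 95% interval −2.03 to −1.02, adjusted p = 0.0292) fell further with RSPO2, and in these 3 genes every RSPO2 library also lay above every Control library. Myl9, a myosin light chain, was at 184, 167 and 183 FPKM in the BMP2 arm, against 293, 229.5 and 230.4 FPKM in Control. With RSPO2, Myl9 was at 71.9, 62.2 and 60.6 FPKM in the BMP2+RSPO2 arm, against 273, 251 and 251 FPKM in the RSPO2 arm (difference −1.49, 95% interval −1.79 to −1.20, adjusted p = 0.0114). Gas1, a membrane co-receptor, averaged 7.88 ± 3.12 FPKM with BMP2 and 14.7 ± 1.77 FPKM without (difference −1.12, 95% interval −1.40 to −0.85, adjusted p = 0.0172). Pla2g16, a phospholipase gene, was at 25.6, 28.9 and 28.4 FPKM in the BMP2 arm, against 21.7, 23.9 and 25.1 FPKM in Control. Pla2g16 with RSPO2 was at 8.0, 10.1 and 10.4 FPKM in the BMP2+RSPO2 arm, against 18.3, 22.5 and 20 FPKM in the RSPO2 arm. All 3 BMP2+RSPO2 libraries lay below the other 9. The averaged change was not called in the model used for it, which has no term for the difference (log2 −0.40, adjusted p = 0.182). Taken by limma from the model of 4 arms, the same averaged change was called (adjusted p = 0.00149). The difference was called too (difference −1.25, 95% interval −1.51 to −0.98, adjusted p = 0.0114). Tmem100, a transmembrane protein induced by BMP in endothelium, averaged 1.59 ± 0.921 FPKM with BMP2 and 9.49 ± 5.19 FPKM without (difference −1.38, 95% interval −1.70 to −1.05, adjusted p = 0.0172).

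**Figure D5:**
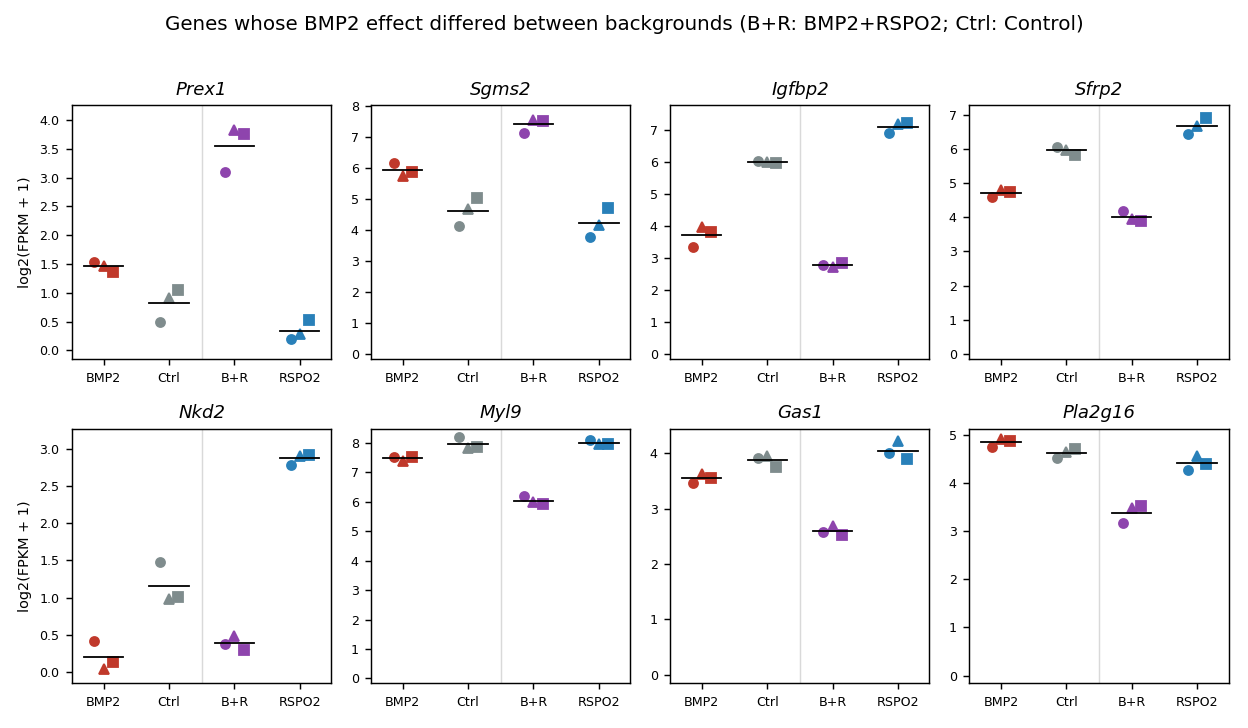
Level of 8 genes whose BMP2 effect differed between backgrounds, per library on the log2(FPKM + 1) scale (y axis), by arm (x axis; Ctrl is Control and B+R is BMP2+RSPO2), with lines at the mean of 3 libraries. Prex1 and Sgms2 are highest in the BMP2+RSPO2 arm, and Pla2g16 is lower there (8.0 to 10.4 FPKM) than in the other 3 arms (18.3 to 28.9 FPKM).

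The calls of the difference rested on few libraries. Leaving out 1 library gave 0 calls by limma without BMP2 replicate 2 or 3, BMP2+RSPO2 replicate 3, Control replicate 2 or 3 or RSPO2 replicate 2, with 1446 to 2835 genes at an unadjusted p under 0.05 in these fits. It gave 6 to 28 calls without BMP2+RSPO2 replicate 2, Control replicate 1 or RSPO2 replicate 1 or 3, and 290.0 and 579 without BMP2 replicate 1 and BMP2+RSPO2 replicate 1. None of the 11 named genes called for the difference kept its call in all 12 fits: Igfbp2, Myl9, Pla2g16 and Prex1 were called in 6, Gas1 and Tmem100 in 5, Nkd2 and Fstl1 in 3 and Sgms2, Sfrp2 and Igfbp7 in 2, with adjusted p up to 0.16 in the others. Without the replicate number in the model the difference lost its call in Tmem100 (adjusted p = 0.345), Sgms2 (0.0745), Igfbp7 (0.0688) and Fstl1 (0.0527). For each of the 11 genes the difference had the same sign in all 12 fits, and Sfrp2 lost its call under both scalings (adjusted p = 0.0639 after median-of-ratios scaling and 0.0595 after quantile normalization).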

How the data were processed

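RNA sequencing of 12 libraries in 4 arms was taken from 1 table of the whole series. The authors deposited FPKM values per gene, rounded to 2 decimals; the submitters' processing notes list cutadapt 1.10, FastQC 0.10.1, HISAT2 2.0, StringTie 1.3.4 and edgeR, and the builds GRCm38 and mm10, while the gene identifiers belong to the C57BL/6NJ annotation. The authors also deposited p-values and q-values of an unnamed comparison, which were not used. Ratios of low FPKM between libraries showed no steps of whole reads (fullest bin 2.02% to 3.55% of genes over 66 pairs), so depth is unknown and no count test was run.

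Of 39032 genes, the 11548 at or above 1 FPKM in 3 or more libraries were tested. log2(FPKM + 1) was fitted in R 4.3.3 by limma 3.58.1, whose variance prior followed the mean level: an additive model of BMP2, RSPO2 and replicate number for the averaged effect (7 residual degrees of freedom), and a model of 4 arms and replicate number (6) for each background and for their difference. All adjusted p-values are two-sided limma values, adjusted by Benjamini-Hochberg over all genes tested. The script was tested on simulated data. Members, lists (30 lists with 525 entries) and rules were chosen with earlier results of these data known. The named genes are the 10 largest rises and falls among called genes with symbols whose groups do not overlap in either background, 4 markers, a panel (Runx2, Sp7, Alpl, Ibsp, Dmp1, Id1, Smad6, Dlx5, Axin2, Nkd2), up to 3 called members per list with the smallest p, and 6 genes of the difference, 86 in all; other list members serve as examples, and some are not reported here. Lists are described by counts and medians, without a test. Promoter windows are RefSeq's (GRCm38.p6), matched by symbol. Alternatives were no replicate number, a pseudocount of 0.1, no filter, quantile normalization, median-of-ratios scaling, library weights, replicates 2 and 3 only, and each library left out. The averaged effect was also taken from the model of 4 arms, which is not counted among these alternatives.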

Additional observations from a re-analysis of the deposited data

Results flagged for a closer look

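The log2 effect of BMP2 differed between backgrounds by the test of the difference for 11 named genes. The difference (with RSPO2 minus without) was 2.57 for Prex1, 1.86 for Sgms2, −2.02 for Igfbp2, −1.53 for Nkd2, −1.49 for Myl9 and −1.42 for Sfrp2. It was −1.38 for Tmem100, −1.25 for Pla2g16, −1.12 for Gas1, −1.07 for Fstl1 and −0.84 for Igfbp7.

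Single libraries lay far from the other 5 of their group in 6 of 172 combinations of gene and group. The rule flags about 1 in 20 sets of values drawn from a single distribution. Each group here mixes arms and replicate numbers, so that rate may not hold. In libraries with BMP2 the flagged values were Atoh8 in BMP2 replicate 1 at 9.44 FPKM, Inhba in BMP2+RSPO2 replicate 1 at 14.32 FPKM, Jag1 in BMP2+RSPO2 replicate 1 at 1.48 FPKM and Mfap4 in BMP2 replicate 2 at 0.1 FPKM. Without BMP2 they were Alpl in RSPO2 replicate 2 at 5.45 FPKM and Fbn2 in RSPO2 replicate 3 at 36.13 FPKM. In BMP2+RSPO2 replicate 1 the FPKM sum was 635139 and the share of RNA polymerase III transcripts 19.1%, far above the other libraries with BMP2, and in RSPO2 replicate 3 that share was 2.30%.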

How the results depend on the processing

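Called genes in the averaged effect numbered 1339 to 3238 with 1 library left out, all with the same sign in both backgrounds. With a library left out the count was 2468 to 4213 with RSPO2, 104 to 998 without RSPO2 and 0 to 579 for the difference. Library weights, which gave BMP2+RSPO2 replicate 1 a weight of 0.081, moved the count without RSPO2 to 2172 (329 as reported) and that of the difference to 2184 (91). Replicates 2 and 3 alone gave 764 and 826. Median-of-ratios scaling and quantile normalization lowered the count with RSPO2 to 2768 and 2748 (4159), and no filter left 5 genes in the difference. The cause was not tested.

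The replicate block is part of the model. Without it the averaged count was 2095, the count without RSPO2 175 and that of the difference 34. The pairing it assumes is partial: deviations of same-numbered libraries correlated by over 0.1 in 16 of 18 pairs (−0.12 to 0.63), so the numbers are not shown to pair the samples.

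In the averaged effect, 74 of the 86 named genes kept direction and call under every alternative and none changed direction; of the 11 called for the difference, 0 kept the call in all 12 fits with a library left out. Ncam1, Etv4, Ccl2 and Ccl7 lost their calls with a library left out, and Dmp1, Col4a1, Des and Etv4 without the block. Calls were lost in 6 named genes with replicates 2 and 3 only and in 4 without the filter. Quantile normalization ended 3 calls, and median-of-ratios scaling and library weights 1 each. Not all of these genes are named here. Among the tested GDNF family genes, replicates 2 and 3 alone left 1 fall and 0 rises. Unknown depth means that no limit can be put on values listed at 0.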
